A study of Mus musculus with 28 samples.

Results

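Livers of mice fed a high fat diet with resveratrol (HR) were compared with livers of mice fed a standard diet (SD), to see which genes still differed from the standard diet when resveratrol was in the high fat food. The labels place 6 arrays in the first group and 5 in the second, together 11 of the 28 arrays of the series. All mice were male C57/6J animals, 7 weeks old when the diets began and 33 weeks old when liver RNA was taken, after 26 weeks of feeding. HR mice ate the high fat diet with 0.4% resveratrol (4 g per kg of diet). The high fat diet alone (HFD) was given to 6 mice, the diet with 0.4% quercetin (HQ) to 5, and the diet with 0.2% of both compounds (HQR) to 6. These 3 groups are used only beside the HR values. Per the labels, each array held the RNA of 1 mouse and degraded RNA samples were not hybridised. RNA of whole liver was measured, so fewer cells of a type and less RNA per cell cannot be told apart.

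Long feeding with a high fat diet makes mouse hepatocytes store triglyceride in lipid droplets, and proteins of the CIDE and perilipin families coat and enlarge those droplets. Liver also secretes proteins that act on other tissues, among them complement factors and peptide hormones. Resveratrol is a plant stilbene that has been studied mainly through the deacetylase SIRT1 and the energy sensor AMPK.

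Expression is given as the log2 signal of a gene's probe after subtracting that array's own 75th percentile, so a difference of 1 is a doubling of signal, and levels of different genes are not compared. Between 62.6% and 79.4% of probes were well above background on HR arrays, against 61.8% to 73.5% on SD arrays. The 75th percentile of the signal lay between 211.1 and 574.5 on HR arrays and between 257.9 and 374.6 on SD arrays. Across genes, the median correlation of an HR array with an SD array was 0.9692 (30 pairs), against 0.9723 within HR (15 pairs) and 0.9688 within SD (10 pairs). The 7 measured hepatocyte markers were well above background on every HR and SD array. Precision below is limited by how many arrays there were.

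Of 21861 genes tested, 12 differed between HR and SD livers at an adjusted p under 0.05, which is 0.0549% of all genes (limma, 28 arrays in 1 model, Benjamini-Hochberg adjustment). Higher in HR were 7 genes (0.032%) and lower were 5 (0.0229%). In both directions together, 1257 genes had an unadjusted p under 0.05, or 5.75%. Described here, of those that rose, are Cfd, the probe NAP025923-1 beside it, A130009I22Rik, A430085C19, Drc7 and Tmem210. The 5 that fell were Moxd1, H2-Q1, Tff3, Enho and Ocstamp. In 11 of these 12, all HR livers lay on 1 side of all SD livers, and Moxd1 was the exception. Over all genes, every HR liver lay above every SD liver for 54 genes (0.247%) and below for 86 (0.393%).

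The count depended on individual livers and on the model. With the HR and SD arrays fitted alone, no gene passed in limma (1005 at an unadjusted p under 0.05), and Cfd had an adjusted p of 0.167. Without SD replicate 4 the count was 2, without SD replicate 5 it was 2 and without HR replicate 6 it was 5. Cfd and H2-Q1 passed in each of these 3 reduced fits, and all 12 kept their direction.

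Promoters of 3 of the 12 genes and 3 probes are shown, because they are the DNA behind the largest rise, the largest fall and the probes that need a second look. RefSeq promoter windows (GRCm38.p6, the 250 bases before the annotated start, plus strand, 5′ to 3′) were found for 4 of the 12. They were searched on both strands for TTCNNNGAA (the STAT form), TTGCNNAA (C/EBP), AGGTCA (a nuclear receptor half-site), TATAAA and CCAAT, and capitals mark TTCNNNGAA. That motif was in 7.02% of 32851 promoter windows, TTGCNNAA in 9.56%, AGGTCA in 14%, TATAAA in 12.4% and CCAAT in 33.8%. A match is a description of these letters and not a binding site. The Moxd1 window held TTCCAGGAA, beginning 150 bases before the start, and the Drc7 window held TTCCCAGAA, beginning 38 bases before it. The Moxd1 window also held CCAAT (243 bases before the start) and the Drc7 window TTGCNNAA (167 bases before), both on the plus strand. The Cfd window held none of the 5 motifs.
Cfd promoter, chr10:79890603-79890852: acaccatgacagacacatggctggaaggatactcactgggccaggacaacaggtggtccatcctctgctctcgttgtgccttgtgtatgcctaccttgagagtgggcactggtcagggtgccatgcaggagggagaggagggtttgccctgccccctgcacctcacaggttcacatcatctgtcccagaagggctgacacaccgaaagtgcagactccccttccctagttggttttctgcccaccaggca
Moxd1 promoter, chr10:24223267-24223516: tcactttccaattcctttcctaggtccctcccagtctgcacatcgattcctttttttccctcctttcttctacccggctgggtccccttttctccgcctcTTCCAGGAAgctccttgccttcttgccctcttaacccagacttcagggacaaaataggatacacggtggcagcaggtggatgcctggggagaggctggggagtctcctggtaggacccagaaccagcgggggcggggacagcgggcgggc
Drc7 promoter, chr8:95054853-95055102: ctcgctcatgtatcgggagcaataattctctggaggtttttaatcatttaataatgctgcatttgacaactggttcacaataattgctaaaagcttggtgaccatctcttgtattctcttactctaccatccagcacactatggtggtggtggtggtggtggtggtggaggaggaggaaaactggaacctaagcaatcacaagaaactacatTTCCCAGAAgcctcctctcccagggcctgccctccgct

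The array probes are given in mm9, the build of the array files. NAP025923-1 has no gene name in the files. Its 60 bases lie over 226 positions of the plus strand, 176 bases before the Cfd probe, and the nearest other probes belong to Med16 (2501 bases away) and Elane (4479 bases away). Both Tmem210 probes share 44 bases, in capitals below, so they are not independent measurements.
NAP025923-1, chr10:79354900-79355125: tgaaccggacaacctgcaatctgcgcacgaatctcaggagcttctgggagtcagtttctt
Tmem210 probe 1, chr2:25144001-25144060: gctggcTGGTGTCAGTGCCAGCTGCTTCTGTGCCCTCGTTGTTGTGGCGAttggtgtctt
Tmem210 probe 2, chr2:25143991-25144050: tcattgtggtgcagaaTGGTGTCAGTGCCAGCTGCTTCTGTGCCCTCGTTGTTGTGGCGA

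Cfd had the largest rise of the 12. It encodes complement factor D (adipsin), the serine protease of the alternative complement pathway, which in mice is made mainly by adipocytes. Its probe lies at chr10:79355302-79355361 on the plus strand. In HR livers Cfd levels ran from 3.29 to 5.28 with a median of 4.28, against 1.73, 1.53, 0.71, -0.10 and -2.18 in SD livers. The lowest HR liver lay well above the highest SD liver, and SD livers were widely spread. The means were 4.29 ± 0.84 in HR (standard deviation, n = 6) and 0.34 ± 1.58 in SD (standard deviation, n = 5). The difference was 3.95 (standard error 0.58, 95% confidence interval 2.76 to 5.14, adjusted p = 0.00319), a 15.5-fold higher signal.

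The neighbouring probe NAP025923-1 moved with Cfd. Its levels ran from 0.22 to 1.97 in HR livers (median 1.07), against -0.86, -0.90, -1.66, -2.59 and -3.99 in SD livers. The groups did not overlap, and SD replicate 1 was the lowest liver for both probes. The difference was 3.12 (standard error 0.59, adjusted p = 0.0297), or 8.71-fold, and it passed in 15 of 26 alternative settings. Both probes lie close together on chromosome 10, and whether they report 1 transcript was not tested.

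Because fat tissue carries abundant Cfd RNA, the other adipocyte markers were read beside it. Of 10 measured markers 6 were above 0 and 4 below, with a median difference of 0.10 (-0.02 after normexp correction), and Cfd alone passed the test. Adipoq, the adiponectin gene, differed by 0.01 and Plin1 by 0.39 (adjusted p = 1 for both). Log2 of the summed signal of the 10 markers lay between 9.21 and 10.4 in HR livers, and SD livers reached both below (lowest 9.04) and above that range. Of the 24 complement genes, 1 rose (Cfd), 8 had a difference above 0 and 16 below, with a median of -0.16. After quantile normalization 14 were above 0 and 10 below (median 0.03), so this list has no settled direction.

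Drc7 encodes a subunit of the dynein regulatory complex of motile cilia and sperm tails. Its levels lay between -1.22 and -0.30 in HR livers (median -0.88), against -1.70, -2.17, -2.43, -2.48 and -2.82 in SD livers. HR livers were 2.73-fold higher (difference 1.45, standard error 0.23, adjusted p = 0.0101), at chr8:97583022-97583081. A further Drc7 probe, at chr8:97598076-97598135, was well above background on 0 HR and 0 SD arrays and was not kept. The Drc7 rise therefore rests on 1 probe. Tmem210, a predicted membrane protein gene, lay between -0.24 and 0.73 in HR livers (median 0.08) and at -0.52, -0.74, -1.09, -1.27 and -1.28 in SD livers. The 2.15-fold rise (difference 1.105, adjusted p = 0.0231) was measured by probe 2, and probe 1 gave a difference of 1.01. Tmem210 passed in 16 of 26 alternative settings.

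A430085C19 and A130009I22Rik carry only the names of the array design. A430085C19, at chr18:70690525-70690584, lay between -0.92 and 0.93 in HR livers (median -0.39) and between -2.41 and -1.72 in SD livers. Its difference was 1.80 (standard error 0.32, adjusted p = 0.0195), or 3.49-fold. A130009I22Rik, at chr8:71151501-71151560 on the minus strand, had 3 of 6 HR livers well above background, against none of 5 SD livers. No fold is given, because a mean of signals not well above background sets no lower limit. The gene's signal was higher in HR livers (adjusted p = 0.0382). It reached the filter's minimum of 5 arrays only with the 3 HR arrays where it was bright, so its test is no independent support. This gene passed in 6 of 25 alternative settings, the fewest of the 12.

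Moxd1 had the largest fitted fall. It encodes a copper-dependent monooxygenase-like protein, and in mouse liver its RNA is higher in males. Levels ran from -5.65 to -2.24 in HR livers (median -4.60), against 3.00, 1.67, -0.30, -1.20 and -4.09 in SD livers. The groups overlapped: SD replicate 2 lay below the highest HR livers, and only 3 of 6 HR livers had a signal well above background, against 5 of 5 SD livers. The means were -4.43 ± 1.30 in HR (standard deviation, n = 6) and -0.18 ± 2.73 in SD (standard deviation, n = 5), a difference of -4.25 (standard error 0.80, adjusted p = 0.0297). By the fit Moxd1 was 19.0-fold lower in HR, a value that includes the 3 HR arrays not well above background. The call was lost with slide as a block (adjusted p = 0.12) and without SD replicate 4 or 5 (adjusted p = 0.127 for each).

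Enho and Tff3 encode secreted peptides. Enho encodes adropin, a peptide of liver and brain linked to energy balance. Its levels lay between 1.61 and 2.47 in HR livers (median 2.06), against 2.62, 3.25, 3.47, 3.73 and 4.11 in SD livers. The groups did not overlap, although the lowest SD liver came close to the highest HR liver. HR livers were 2.61-fold lower (difference -1.38, standard error 0.25, adjusted p = 0.0195), while blocking on slide gave a difference of -1.26 (adjusted p = 0.0715). Enho passed in 14 of 26 alternative settings. The probe lies at chr4:41585257-41585316.

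Tff3 encodes trefoil factor 3, a secreted peptide of mucosal surfaces and bile ducts. It lay between -2.67 and -1.84 in HR livers (median -2.47), against 0.02, -0.18, -0.46, -0.86 and -1.65 in SD livers. The difference was -1.76 (standard error 0.30, adjusted p = 0.0156), a 3.39-fold lower signal at chr17:31262279-31262338. Among the 17 bile duct markers 1 fell (Tff3), 7 were above 0 and 10 below, with a median of -0.12. The part of bile duct cells in the Tff3 fall was not tested.

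H2-Q1 belongs to the class Ib genes of the major histocompatibility complex. It ran from -3.81 to -2.58 in HR livers (median -3.07), against -0.90, -1.11, -1.17, -1.29 and -1.54 in SD livers. The difference was -1.90 (standard error 0.28, adjusted p = 0.00319), or 3.74-fold lower, and the SD livers were closely grouped. H2-Q1 has near-identical neighbours in its family, so the probe at chr17:35461951-35462010 may also bind their RNA and the gene is uncertain. Of 14 measured class I genes 1 fell (H2-Q1) and 13 were below 0, with a median of -0.29. The median was -0.10 after quantile normalization, and with normexp correction H2-Q1 did not pass (adjusted p = 0.98).

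Ocstamp encodes a membrane protein that osteoclasts need for fusion. Its levels lay between -1.37 and -0.77 in HR livers (median -0.98), against 1.13, 1.097, 0.13, -0.02 and -0.68 in SD livers. The groups came close without overlapping, and SD livers were spread more widely. The 2.55-fold fall (difference -1.35, adjusted p = 0.0301) was at chr2:165221059-165221118, and a second probe gave -0.97. Ocstamp passed in 13 of 26 alternative settings.

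**Figure D1:**
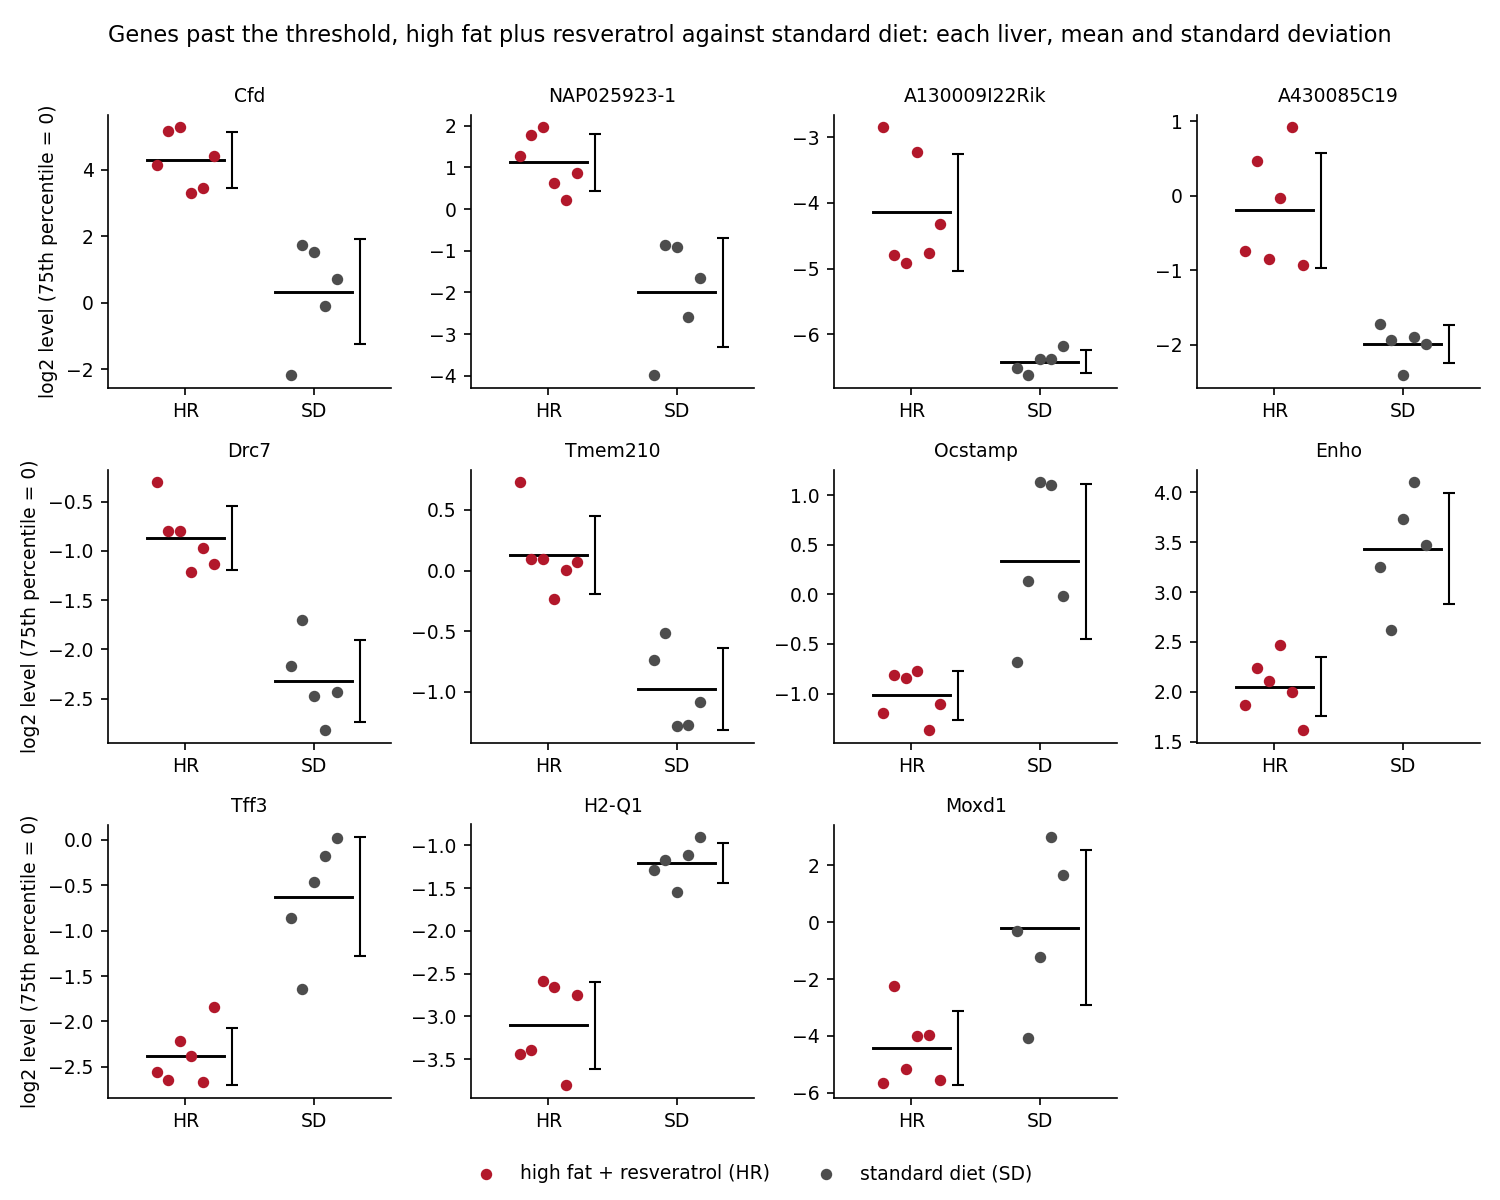
Log2 level of 11 of the 12 called genes (y axis, relative to the array's 75th percentile) in every HR and SD liver, with points for livers, and lines and bars for the mean and standard deviation. The HR and SD points are separate in the other panels, while in the Moxd1 panel SD replicate 2 sits among the HR livers.

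The unsupplemented high fat diet was set beside HR to see where the supplemented livers stood. HFD against SD gave 25 called genes (0.114%) and HR against HFD gave 2 (0.00915%). HR against SD and HFD against SD share the 5 SD arrays, so their values are given side by side and their likeness is not read as a result. Cfd averaged 4.29 in HR and 5.78 in HFD, which put its difference from SD at 3.95 for HR and 5.44 for HFD. The direct HR minus HFD difference of Cfd was -1.49 (standard error 0.55, adjusted p = 0.93). For H2-Q1 the difference from SD was -1.90 in HR and -1.62 in HFD, and for Tff3 -1.76 in HR and -1.93 in HFD. For Enho it was -1.38 in HR and -1.65 in HFD, and for Moxd1 -4.25 in HR and -5.19 in HFD. Direct HR minus HFD differences were -0.28 for H2-Q1, 0.17 for Tff3, 0.27 for Enho and 0.94 for Moxd1 (adjusted p = 1 for each). For Moxd1 only 3 of 6 HR arrays and 1 of 6 HFD arrays were well above background, so its values in these groups are largely those of background. For none of the 12 was a difference between HR and HFD shown.

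Drc7, Tmem210, Ocstamp, A430085C19 and A130009I22Rik passed against SD in HR livers but not in HFD livers. This does not show that they differ between HR and HFD. Their differences from SD were 1.45 in HR and 0.84 in HFD (adjusted p = 0.282) for Drc7. Those of Ocstamp were -1.35 in HR and -0.83 in HFD (adjusted p = 0.436). Tested directly, HR minus HFD was 0.61 for Drc7 (adjusted p = 0.93). A130009I22Rik was well above background on 3 of 6 HR and 1 of 6 HFD arrays (adjusted p = 0.458), so no size is given.

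**Figure D2:**
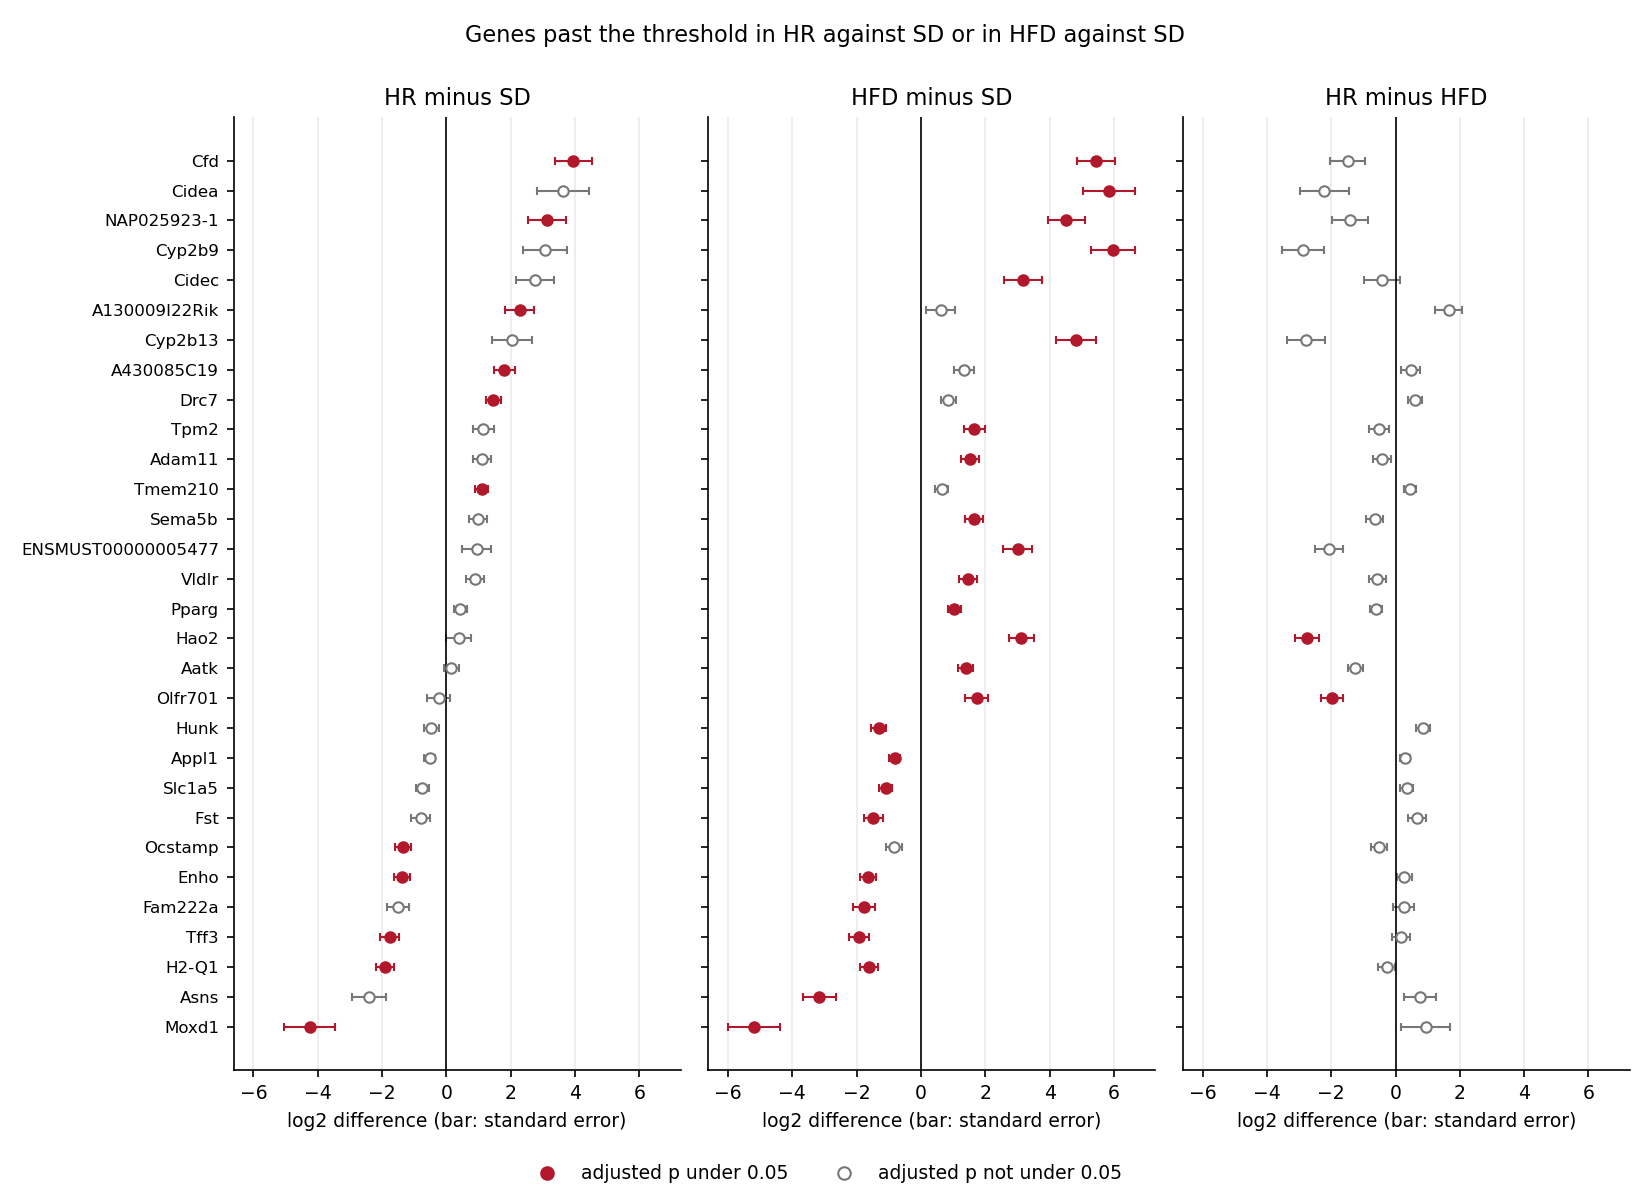
Log2 differences (x axis, 1 scale for the 3 panels) of genes called in HR against SD or in HFD against SD (1 not shown): HR minus SD, HFD minus SD, and HR minus HFD, with bars for standard errors and filled points for an adjusted p under 0.05. The first 2 panels share the same 5 SD livers, and in the panel of HR minus HFD only Hao2 (-2.74) and Olfr701 (-1.98) are filled.

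Several genes of fat storage that passed in HFD against SD did not pass in HR against SD. This does not show that they differ between HR and HFD. None of them was among the 2 genes called in HR against HFD. Cidea, which helps lipid droplets fuse, ran from -0.71 to 3.80 in HR livers (median 3.31), against 0.52, 0.47, -1.52, -2.47 and -2.53 in SD livers. HR replicate 5 was the low liver and the only one that reached the SD range. The difference from SD was 3.63 in HR (standard error 0.80, adjusted p = 0.116) and 5.85 in HFD (adjusted p = 0.000336). Without HR replicate 5 the HR difference was 4.27 (adjusted p = 0.018), while the slide block gave 3.88 (adjusted p = 0.0447). Leaving out the lowest HR liver had to raise the difference, so the fit without it is no support. Cidea passed in 5 of 26 alternative settings. Cidec, a relative that enlarges droplets, ran from 1.95 to 4.22 in HR livers, against 2.14, 1.37, 0.73, -0.997 and -2.13 in SD livers. The groups overlapped by 1 SD liver, and the Cidec difference from SD was 2.76 in HR (adjusted p = 0.0797) and 3.18 in HFD (adjusted p = 0.0132).

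Cyp2b9 and Cyp2b13 are cytochrome P450 genes expressed mainly in female mouse liver. Cyp2b9 was spread widely in HR livers, from -2.22 to 2.65 (median 1.06), against -0.63, -1.55, -2.05, -3.37 and -3.91 in SD livers. HR replicate 4 was the low liver, within the SD range. Without it the difference of 3.08 (adjusted p = 0.117) became 3.67 (adjusted p = 0.0107). Taking out the lowest HR liver had to raise the difference, so that fit is no support. It was the only 1 of 26 alternative settings in which Cyp2b9 passed, and a second Cyp2b9 probe gave a difference of 0.90. In HFD livers Cyp2b9 lay between 3.22 and 4.09, above every HR liver, yet the HR minus HFD difference of -2.89 had an adjusted p of 0.273. For Cyp2b13 the difference from SD was 2.04 in HR (adjusted p = 0.388) and 4.82 in HFD (adjusted p = 0.000137). Its HR minus HFD difference was -2.78 (adjusted p = 0.217). A second Cyp2b13 probe gave an HR minus SD difference of 0.71.

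Pparg, the nuclear receptor that drives fat storage genes, averaged 2.28 ± 0.22 in HR (standard deviation, n = 6) and 1.85 ± 0.28 in SD (standard deviation, n = 5). Its difference from SD was 0.43 in HR (adjusted p = 0.795) and 1.04 in HFD (adjusted p = 0.017), with HR minus HFD at -0.61 (adjusted p = 0.743). Vldlr, the very low density lipoprotein receptor gene, differed from SD by 0.90 in HR (adjusted p = 0.44) and by 1.47 in HFD (adjusted p = 0.021). Asns, which makes asparagine, differed by -2.41 in HR (adjusted p = 0.0924) and by -3.16 in HFD (adjusted p = 0.00359). For these 3 genes the HR and SD livers overlapped.

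The genes called between HR and HFD were Hao2 and Olfr701. Hao2, a peroxisomal hydroxyacid oxidase gene, was not well above background in any of the 6 HR or 5 SD livers, while all 6 HFD livers were. Hao2 passed the filter on dim probes through the HFD arrays, where it is high, with 1 HQR array beside them, so its test is no independent support. By the fit Hao2 was 6.7-fold higher in HFD than in HR (HR minus HFD -2.74, standard error 0.37, adjusted p = 0.00159). That fold rests on HR signal not well above background, so it is no lower limit. The HR minus SD difference was 0.38 (adjusted p = 1), with both groups below background, and its sign turned to -0.02 after quantile normalization. Olfr701, an olfactory receptor gene, lay between -4.54 and -2.47 in HR livers and between -1.87 and -1.61 in HFD livers (difference -1.98, adjusted p = 0.0435). Its signal was well above background on 4 of 6 HR arrays. HR minus SD was -0.24 for Olfr701 (adjusted p = 1), and it was 0.13 after normexp background correction.

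**Figure D3:**
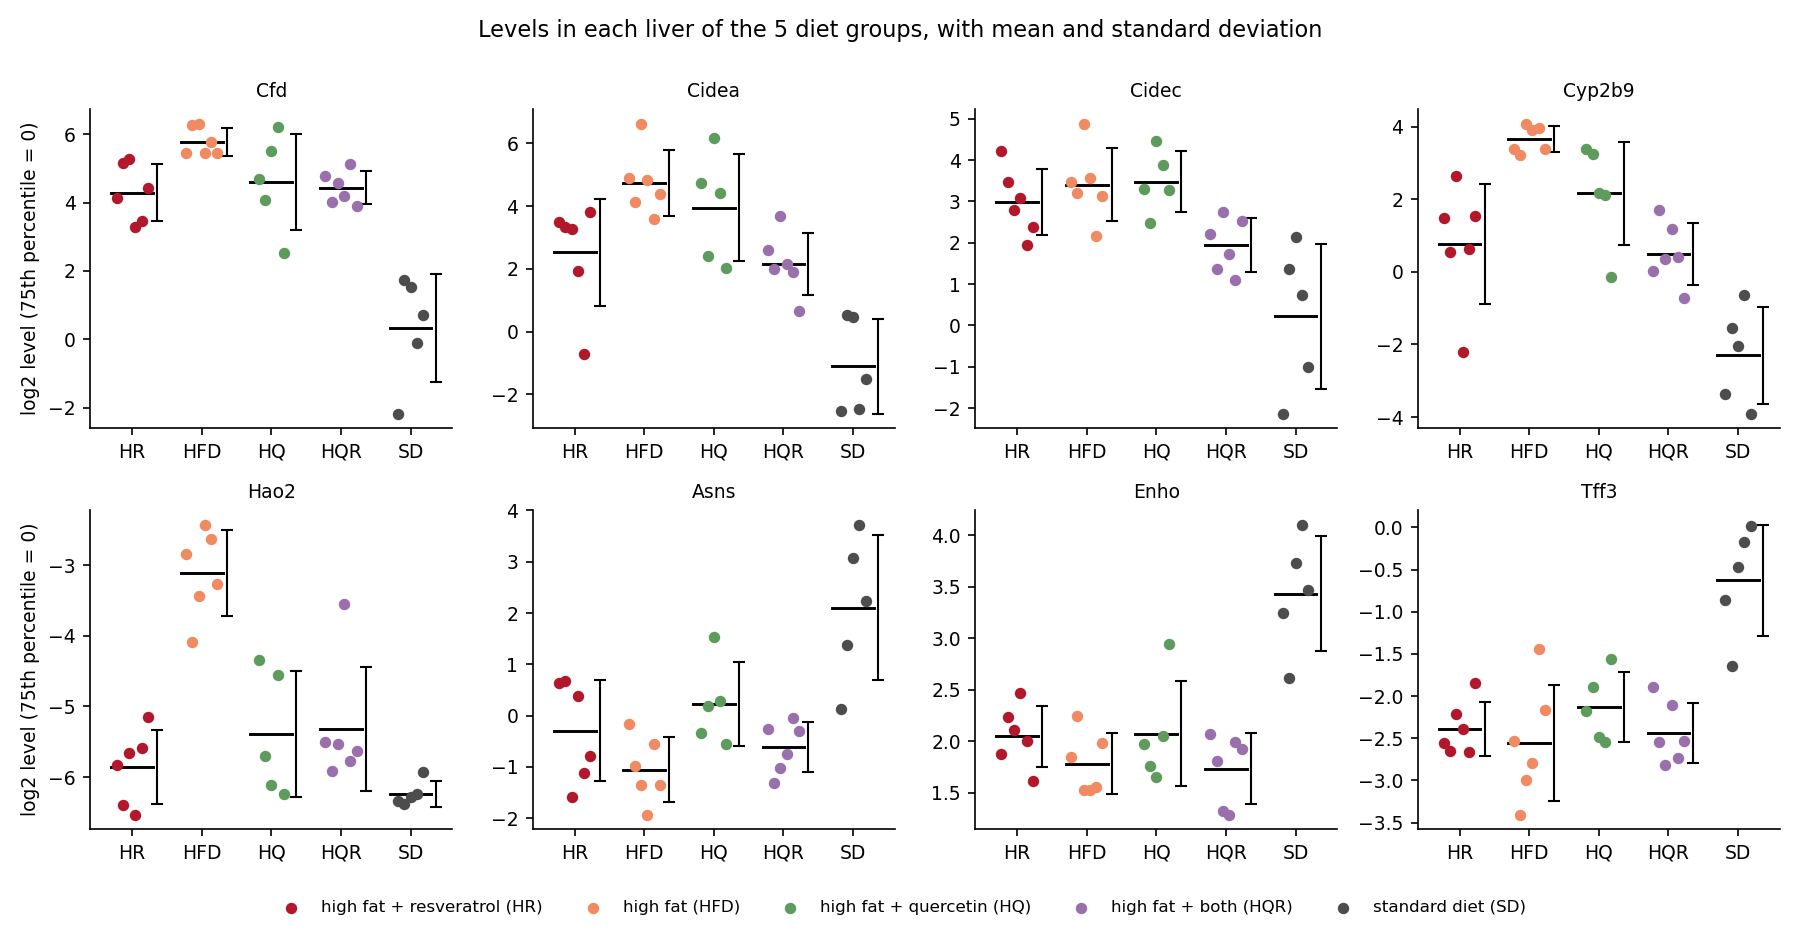
Log2 levels (y axis, 0 is the array's 75th percentile) of 8 genes in every liver of HR, HFD, HQ, HQR and SD, with lines for means and bars for standard deviations. For Cfd all HR livers lie above all SD livers, and for Hao2 the HR livers lie with the SD livers at -5.15 or below while HFD livers reach -2.43.

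Quercetin was compared with resveratrol at the same dose of 0.4%. No gene passed in HR against HQ (283 at an unadjusted p under 0.05, limma), which is not evidence that the compounds act alike. The Cfd difference HR minus HQ was -0.31 with a standard error of 0.58, and for H2-Q1 it was -0.17. HQR held 0.2% of each compound, so its values only stand beside those of HR. HQ against SD gave 8 called genes (0.0366%) and HQR against SD gave 13 (0.0595%), each sharing the SD arrays. The difference of Cfd from SD was 3.95 in HR, 4.27 in HQ and 4.09 in HQR. For H2-Q1 it was -1.90 in HR, -1.73 in HQ and -1.77 in HQR, and for Enho -1.38 in HR, -1.36 in HQ and -1.70 in HQR. Moxd1 differed from SD by -4.25 in HR, by -1.60 in HQ (adjusted p = 1) and by -3.67 in HQR (adjusted p = 0.0713).

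Genes usually followed with resveratrol did not pass. Sirt1 differed by 0.06 between HR and SD (95% confidence interval -0.487 to 0.603, adjusted p = 1) and Ppargc1a, the PGC-1alpha coactivator gene, by -0.60 (adjusted p = 0.866). Nampt, which makes an NAD precursor, differed by 1.02 (adjusted p = 0.59). Of the 26 genes of sirtuins, AMPK and PGC-1, none passed, 10 were above 0 and 16 below, with a median of -0.14 (13 above and 13 below after quantile normalization). Of the 42 NRF2 targets and antioxidant enzymes none passed, with 18 above 0 and 24 below, a balance that turned to 27 above and 15 below after quantile normalization. Gstm2, a glutathione transferase of that list, was lower in every HR liver (4.12 to 4.92) than in any SD liver (5.26 to 5.87), at a difference of -1.01 and an adjusted p of 0.0713.

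Gene lists are described by counts and medians, beside a median of -0.05 and 41.9% of genes above 0 over all genes tested. With the main processing, abundant genes lay lower in HR. In the brightest decile (2187 genes) the median was -0.16 and 18.1% were above 0. In the 7 dimmest deciles 43.9% to 51.6% were above 0. Of 48 cytosolic ribosomal protein genes 8 were above 0, but 39 after quantile normalization and 1 after normexp correction. For 48 oxidative phosphorylation genes these counts were 19, 34 and 4. The direction of these lists of abundant genes thus turned with the normalization. Lists of abundant liver genes are read against the brightest decile for the main processing only. The 22 genes of the urea cycle and liver zonation had a median of -0.61, with 2 above 0 and 20 below and none past the test. Slc1a2 and Rhbg, a glutamate and an ammonium transporter of the cells around the central vein, differed by -0.80 and -0.97 with no overlap between groups (adjusted p = 0.499 and 0.345). Tbx3, a transcription factor of the same zone, differed by -1.19 (adjusted p = 0.239). The urea cycle median was -0.44 after quantile normalization.

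Lists of cholesterol and fatty acid synthesis lay mostly below 0. Those of fat oxidation, uptake and storage lay mostly above with the main processing, and near an even split with normexp correction. None of these lists held a called gene. Of 29 genes of cholesterol synthesis, uptake and export, 3 were above 0 and 26 below (median -0.42). Sqle, squalene epoxidase, differed by -1.28 (adjusted p = 0.454), Dhcr7, the last reductase of the pathway, by -1.14 (adjusted p = 0.345), and Hsd17b7 by -0.78 with no overlap between groups (adjusted p = 0.444). Of 26 genes of lipogenesis, 5 were above 0 and 21 below (median -0.35 in HR against SD, 0.00 in HFD against SD). Fasn, fatty acid synthase, differed by -0.83 and Scd1, stearoyl-CoA desaturase, by -0.42 (adjusted p = 1 for both). Of 34 genes of PPARalpha and fatty acid oxidation, 23 were above 0 (median 0.08), and this median was -0.07 after normexp correction. Of 18 genes of PPARgamma and fatty acid uptake 11 were above 0 (median 0.08), and of 19 lipid droplet genes 12 were (median 0.19). After normexp correction 15 of the 34, 9 of the 18 and 10 of the 19 were above 0. With slide as a block these counts were 20, 10 and 10, so uptake and storage were near an even split there too.

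Bile acid genes also lay mostly below 0, with 4 of 28 above 0 and a median of -0.36 (-0.13 after quantile normalization). Slco1a4, an organic anion transporter, ran from 0.23 to 1.99 in HR livers and from 2.09 to 3.26 in SD livers, a difference of -1.75 (adjusted p = 0.325). Nr1h4, the bile acid receptor FXR, differed by -0.56 and Baat, which conjugates bile acids, by -0.57, both with no overlap (adjusted p = 0.478 and 0.406). Abcc4, an export pump, lay on the other side at 1.07 (adjusted p = 0.251). Cyp7a1, which limits the rate of bile acid synthesis, differed by -0.44 (adjusted p = 1). Of 37 drug-metabolising P450 genes 7 were above 0 (median -0.24), and of 24 lipoprotein genes 4 were (median -0.33), with none called in either list. After quantile normalization these medians were -0.09 and -0.12.

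Among secreted and sex-biased genes, 24 hepatokines had 1 that fell (Enho), 5 above 0 and 19 below (median -0.40). Of 24 male-biased genes 2 fell (Moxd1 and Tff3), with 5 above 0 and a median of -0.46. Of 21 female-biased genes none passed and 7 were above 0 (median -0.13). The 7 hepatocyte markers were all below 0 (median -0.41), and their mean level per liver lay between 5.31 and 5.86 in HR and between 5.68 and 6.81 in SD. After quantile normalization the medians were -0.23 for hepatocyte markers (2 of 7 above 0), -0.23 for hepatokines and -0.27 for male-biased genes. Of the male-biased genes 1 passed after quantile normalization or with the slide block (median -0.25), and none passed with normexp.

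Heat shock proteins and sinusoidal endothelial markers had the highest medians of the 42 lists. Of 21 heat shock genes 20 were above 0 (median 0.46 in HR against SD, 0.31 in HFD against SD) and none passed. Hsph1, a large cytosolic chaperone gene, differed by 1.36 (adjusted p = 0.478). The heat shock mean ran from 1.57 to 2.66 in HR livers and from 1.05 to 2.09 in SD livers, so the groups overlapped. Of 22 sinusoidal endothelial markers 20 were above 0 (median 0.42 in HR against SD, 0.00 in HFD against SD), again with none past the test. Clec4g, a lectin of these cells, lay between 4.09 and 4.69 in HR livers (median 4.47) and at 3.97, 3.85, 3.42, 2.90 and 2.85 in SD livers. The groups did not overlap, yet the Clec4g difference of 1.03 (standard error 0.28) had an adjusted p of 0.285.

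Lyve1, a hyaluronan receptor of the same cells, differed by 1.58 (adjusted p = 0.238). Log2 of the summed signal of all 22 endothelial markers lay between 7.69 and 8.14 in HR livers and between 7.93 and 8.32 in SD livers, so the sum was not higher in HR. The mean log2 level of the same markers ran from 1.12 to 1.52 in HR livers (median 1.43). In SD livers it ran from 0.23 to 1.33 (median 0.99), so the means overlapped but lay mostly higher in HR. Of 16 Kupffer cell markers, from the resident macrophages of liver, 12 were above 0 (median 0.28 in HR against SD, -0.22 in HFD against SD). Timd4, a receptor for dying cells, differed by 1.17 and Slc40a1, the iron exporter ferroportin, by 0.70, both with no overlap (adjusted p = 0.402 and 0.251). Monocyte and neutrophil markers had 14 of 17 above 0 (median 0.19), lymphocyte markers 6 of 18 (median -0.01, but 0.09 with 17 above 0 after normexp correction), and stellate and matrix genes 25 of 36 (median 0.16).

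**Figure D4:**
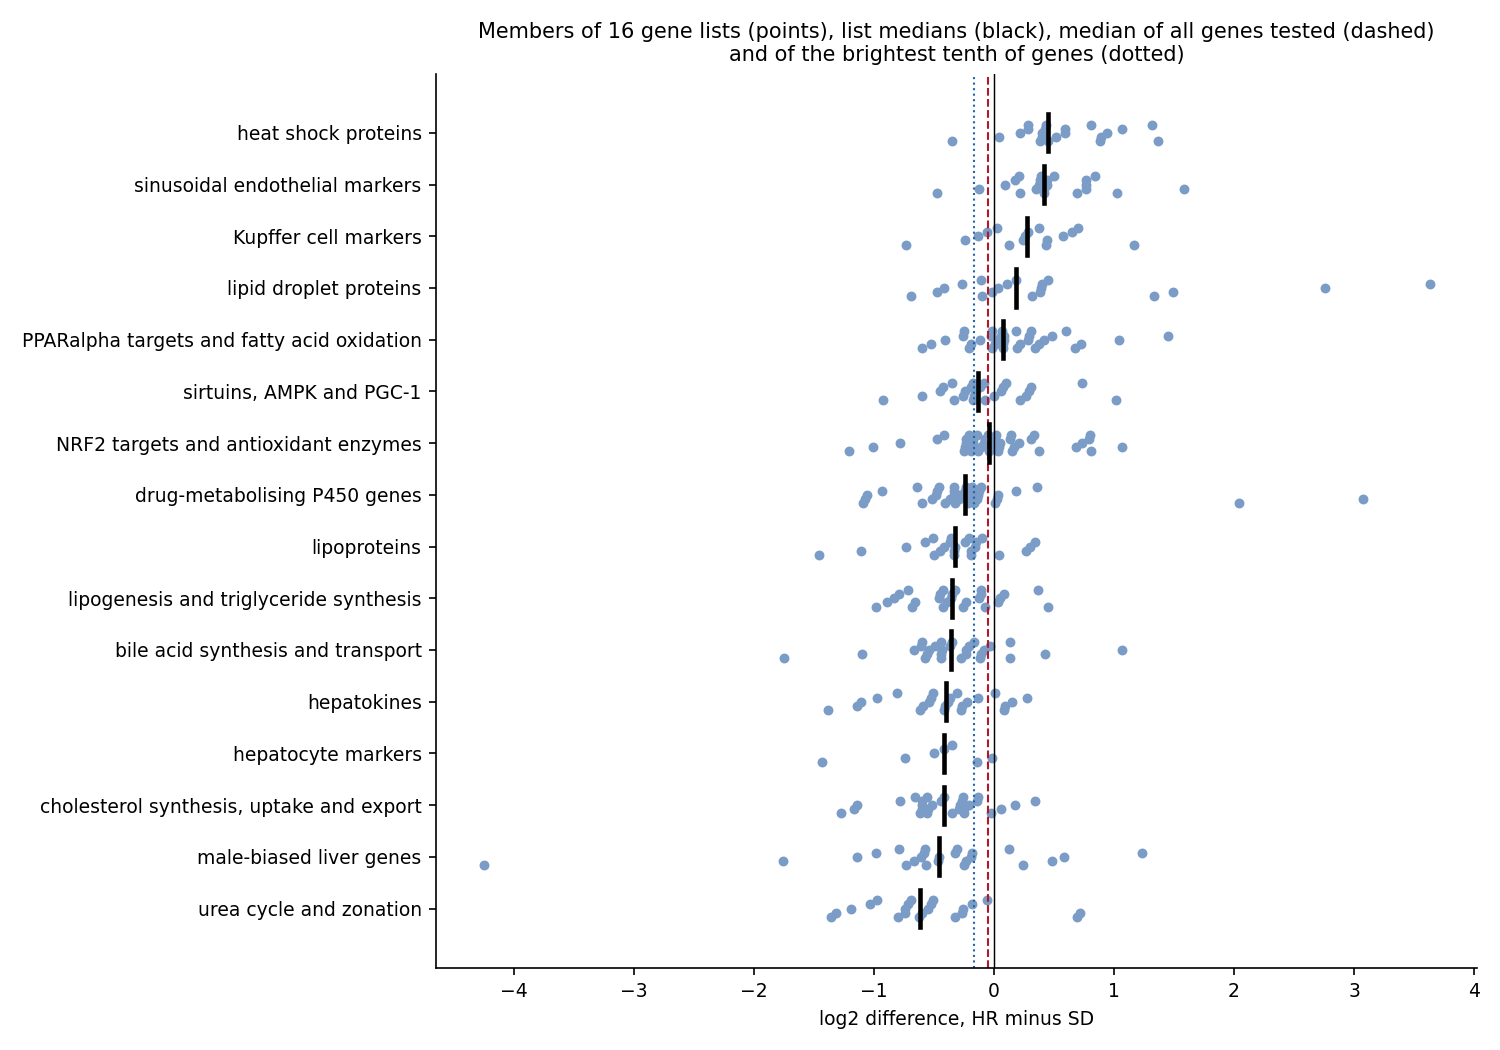
Log2 difference HR minus SD (x axis) of the members of 16 gene lists (points) with each list's median (black bar), the median of all genes (dashed, -0.05) and that of the brightest decile (dotted, -0.16). Of these lists, the median was highest for heat shock (0.46) and sinusoidal endothelial genes (0.42) and lowest for the urea cycle and zonation list (-0.61).

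HR and SD arrays shared 3 slides, so each difference was also read within slides and with slide as a block. With the block 31 genes passed (0.142%), and 9 of the 12 genes above were among them; Moxd1, Enho and A130009I22Rik were not. Within the shared slides the Cfd difference was 3.43, 3.75 and 3.39, and that of H2-Q1 was -2.21, -1.04 and -1.54. That of Tff3 was -1.005, -1.75 and -2.21, and that of Enho -0.38, -1.62 and -1.64. For Moxd1 the same slides gave 1.84, -3.97 and -7.02, so its direction turned on 1 slide.

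**Figure D5:**
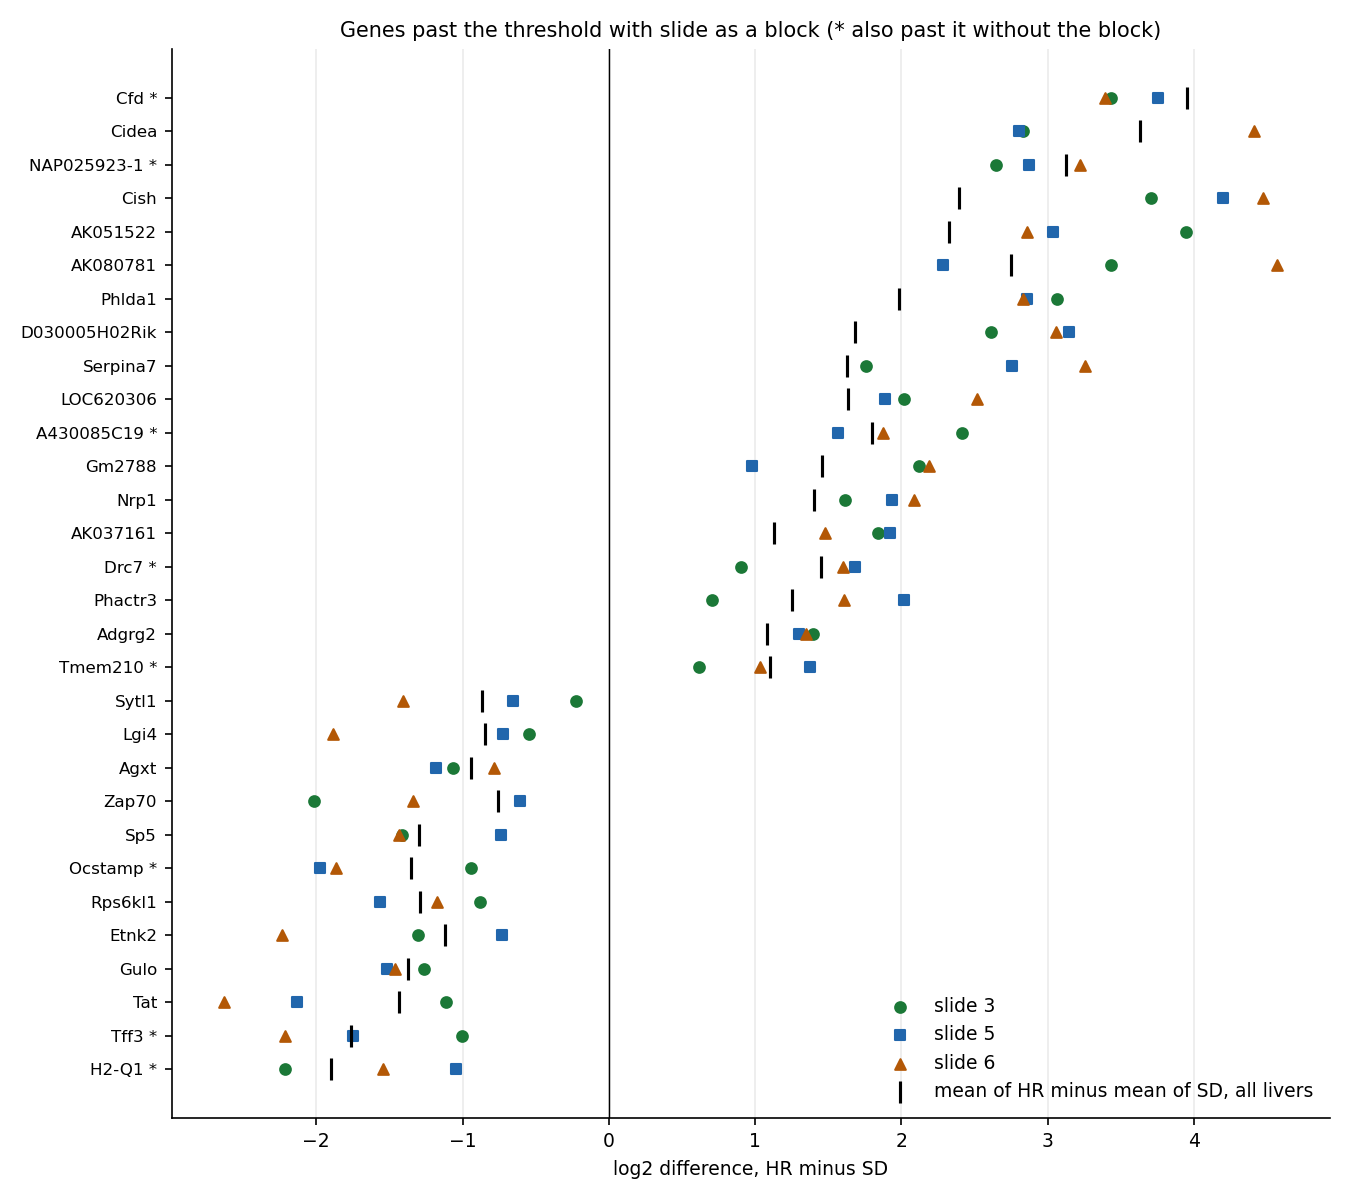
Log2 difference HR minus SD (x axis) within each of the 3 slides that held both groups (coloured points, 1 per slide) for 30 of the 31 genes past the threshold with slide as a block, beside the difference over all livers (black bars); stars mark genes that passed without the block too. All points of a gene lie on 1 side of 0, with those of Cfd between 3.39 and 3.75. The fit that selected these genes draws on the same differences, so their shared side is partly set by that selection.

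Further genes passed once slide was a block and are named after their values were seen. Gulo, which encodes the last enzyme of vitamin C synthesis in mice, ran from 2.42 to 3.73 in HR livers and from 4.14 to 5.19 in SD livers. Its difference was -1.37 in either fit (adjusted p = 0.0797 without and 0.0231 with slide). Sp5, a Wnt-responsive transcription factor gene, was lower in every HR liver (-1.07 to 0.19) than in any SD liver (0.73 to 1.02). Its difference was -1.29 without the block (adjusted p = 0.0797) and -1.24 with it (adjusted p = 0.0447). Serpina7, which encodes a thyroid hormone carrier, differed by 1.63 without the block (adjusted p = 0.523) and by 2.31 with it (adjusted p = 0.00408). Tat, tyrosine aminotransferase, differed by -1.43 without the block (adjusted p = 0.478) and by -1.75 with it (adjusted p = 0.0281).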

How the data were processed

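Liver RNA was measured on 1-colour (Cy3) Agilent whole mouse genome arrays. Per the file headers, the authors extracted spot intensity with Feature Extraction 10.5.1.1, and the processed intensity is background-subtracted. The deposited value table holds a score per probe and array (mean 0, SD 1), which followed the log2 signal on every array. It was multiplied by 3.21 and used as an alternative, and its centring and scale are not stated in the sources used here.

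From these, log2 processed intensity of each spot minus the array's 75th percentile over 43379 non-control spots was computed. Spots flagged as outliers were left out, and the others were averaged per probe (41174 non-control probes). Probes well above background on at least 5 arrays were kept (32095), and the brightest probe stood for a gene (7090 genes had more than 1). Names came from the files and a RefSeq table (GRCm38.p6): 25263 probes matched by accession, 6233 by symbol, 1603 by synonym, and 8075 kept the design name. Some 186 genes lacked a value on an array, and the fit left that array out for them.

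Groups and replicate numbers came from the labels, slides and scan days from the file headers. All 28 arrays were fitted with limma 3.58.1 in R 4.3.3 (two-sided, Benjamini-Hochberg, threshold 0.05), and the pipeline was checked on simulated data. The errors printed for differences are limma standard errors.

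Named genes were those called in HR against SD or HFD against SD, called list members or up to 4 list members of smallest p, and a set of fatty liver and resveratrol genes. The genes, the 42 lists (1083 entries) and the tests were chosen with earlier results of these data known. Of the 12 called genes, 1 is not reported here. Genes called only with slide as a block, some list members and genes of non-overlapping groups were named after their values were seen.

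Replicate numbers did not pair HR with SD livers: in 5 pairs, deviations from the group means correlated between -0.21 and 0.466, with 2 over 0.1. All 5 HFD and SD pairs correlated over 0.1 (0.217 to 0.698), and in 3 of them the same number was the best match. The labels state no pairing. Some of these pairs shared a slide or scan day, and a pairing of mice apart from that was not tested. Alternatives were other normalizations, filters, probe summaries, models and blocks, and leaving out each array.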

Additional observations from a re-analysis of the deposited data

Results flagged for a closer look

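In 52 named genes, HR and SD livers (104 groups) were searched for a liver far from the others of its group, by Dixon's 95% criterion, and 5 were found; chance alone flags about 1 group in 20. Tmem210 was 0.731 in HR replicate 1, against -0.235 to 0.0985 in the other HR livers, and without that liver the HR minus SD difference was 0.98 (adjusted p = 0.0678, against 0.0231 with it). Phlda1, an early response gene, was 4.68 in HR replicate 1 and between 7.55 and 8.45 in the other 5 HR livers. Cish, an inhibitor of cytokine signalling, was 3.41 in SD replicate 5 and 0.825 to 1.57 in the other SD livers. Serpina7 was -0.254 in SD replicate 5, against -2.37 to -1.87 in the others. The transcript ENSMUST00000005477 was -3.17 in SD replicate 4, against -4.6 to -4.25 in the others. Of the SD arrays, only those of replicates 2 and 4 were well above background for it.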

How the results depend on the processing

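The HR against SD count of 12 was 5 after scaling to the array median, 1 after normexp background correction, 0 with both groups fitted alone, 31 with slide as a block and 49 with slide as a random block. After seeing the data, slide 8 was left out (5 genes) and quantile normalization was combined with the slide block (28 genes). Leaving out 1 replicate gave 2 to 12 genes. The cause was not tested, except that the fit of both groups alone had fewer arrays for its spread. Other settings gave 11 to 18. All 12 genes kept their sign in every setting; Cfd passed in 25 of 26, H2-Q1 in 24, Drc7 and Tff3 in 22 each, A430085C19 in 20, Tmem210 in 16, NAP025923-1 in 15, Enho in 14, Ocstamp in 13, Moxd1 in 12 and A130009I22Rik in 6 of 25.

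With the replicate block, 12 genes passed in HR against SD, 2 in HR against HFD and 33 in HFD against SD; of the named genes it ended the calls of Enho (adjusted p = 0.0531), Moxd1 (0.0969) and A130009I22Rik (0.0797), while Cidea (0.0237) and Cidec (0.0351) passed. Numbers correlated over 0.1 in all 5 HFD and SD pairs and in 4 of 6 HR and HFD pairs.

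HR against HFD (2 genes) gave 1 after array median scaling, without a filter, with the deposited table, with the 2 groups alone, with slide as a block and with scan day as a block. It gave 4 with normexp, the strict filter, the mean of probes and the intensity trend, and 8 with the slide random block. Leaving out 1 replicate gave 1 to 3. HFD against SD (25 genes) gave 10 with the 2 groups alone, 78 with the slide random block and 15 to 27 without 1 replicate. Signs turned for Hao2, from 0.38 to -0.02342 with quantile normalization and -0.05773 with the slide block added. They turned for Olfr701, from -0.24 to 0.1297 with normexp and 0.05317 with quantile normalization and slide block. Precision is limited by array number, and for A130009I22Rik, Moxd1, Hao2, Olfr701 and ENSMUST00000005477 by signal near background on some arrays.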

Other observations

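Genes that passed with slide as a block included 3 probes within the Nrp1 region of chromosome 8 (mm9, plus strand). Nrp1, a co-receptor for vascular growth factors, has a probe at chr8:130884009-130884068. AK080781 has its probe at chr8:130893630-130893689 and D030005H02Rik at chr8:130967447-130967506, both before the last Nrp1 probe at chr8:131026650-131026709. AK080781 was 0.57, 3.47, 2.50, 3.70, 4.49 and 1.86 in HR livers and 0.70, 0.04, 0.21, -0.87 and -0.02 in SD livers. The groups overlapped only through HR replicate 1 and SD replicate 1. The AK080781 difference was 2.75 (adjusted p = 0.0653), and the slide block gave 3.16 (adjusted p = 0.00217). Nrp1 was -0.35, 1.67, 1.20, 1.11, 2.33 and 0.48 in HR livers and 0.27, 0.05, -0.73, -0.98 and -0.27 in SD livers. The Nrp1 difference was 1.402 (adjusted p = 0.478), and 1.70 with the block (adjusted p = 0.00883). The other Nrp1 probes, at chr8:130992273-130992332 and chr8:131026650-131026709, gave smaller differences of 0.60 and 0.51 without the block. D030005H02Rik differed by 1.68 (adjusted p = 0.762), and by 2.37 with the block (adjusted p = 0.0447). All 3 were chosen after their values were seen, and whether these probes report 1 transcript was not tested.

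HR livers also differed among themselves. Cish was 0.50 in HR replicate 1 and 2.75 in replicate 6, but 5.06 to 5.35 in the other 4 HR livers, against 0.83, 0.86, 1.498, 1.57 and 3.41 in SD livers. The Cish difference was 2.40 (adjusted p = 0.73), and the slide block gave 3.28 (adjusted p = 0.0314). Phlda1 was 4.68 in HR replicate 1, below all SD livers (5.03 to 5.95), and 7.55 to 8.45 in the other 5 HR livers. Its difference was 1.99 (adjusted p = 0.255), and 2.47 with the block (adjusted p = 0.00564). HR replicate 1 was thus low for Phlda1, Cish, Nrp1 and AK080781, while it was the highest HR liver for Cidec (4.22).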
